A study of Drosophila melanogaster with 2 samples.

Results

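The genes described here encode the protein factors that start, extend and end translation on cytosolic ribosomes in Drosophila melanogaster. They were chosen by symbol alone, as the protein-coding genes whose symbol begins with eIF, eEF or eRF followed by a digit. Of the 13945 protein-coding genes on the main chromosome arms, 53 qualified. No peak value entered this rule, but it was set with earlier results of these data known. The tagged protein was CG3065, which has zinc fingers of the Sp/KLF type, and its peaks were mapped by chromatin immunoprecipitation and sequencing (ChIP-seq). The embryos came from a transgenic line in which green fluorescent protein (GFP) was joined to the C-terminus of CG3065, and an antibody against GFP was used for the precipitation. Whole embryos of both sexes, aged 0 to 16 h, gave 1 group with 2 biological replicates, numbered 1 and 3, from chromatin sonicated to 200 to 800 bp. All embryos therefore carried the fusion, many cell types and stages were mixed, and the labels name neither the promoter of the transgene nor the state of the untagged copy of CG3065. The labels call the replicates biological and do not say whether they came from separate embryo collections.

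The data were peak lists. For each replicate and for both pooled there was a relaxed list, which the authors described as holding peaks and background, so that an entry in it need not mark binding. The relaxed lists held 30000 entries for replicate 1, 26271 for replicate 3 and 30000 for the pool. A further list of 2451 peaks had passed a threshold on the irreproducible discovery rate (IDR), a measure of how well peak ranks repeat between replicates, and these are called IDR peaks. Each peak has a summit and a signal, the authors' own enrichment value, which ranks peaks within a list and has no unit shared between lists. Rank 1 is the peak of highest signal. The IDR peaks were the 2451 pooled peaks of highest signal, from 81.33 to 1017, so the IDR set amounts to a limit on pooled signal. Read counts are not part of the lists, which leaves the depth unknown, and control libraries were not analysed here. With 1 group, no difference between groups could be tested. Genes are not replicates of a condition, so counts over genes are given as descriptions with no p-value.

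Translation begins when the small ribosomal subunit, loaded with eIF3, eIF1, eIF1A and initiator tRNA carried by eIF2, is brought to the capped end of an mRNA by the eIF4 proteins and scans for the start codon. eIF5 and eIF5B then allow the subunits to join, and eIF2B recharges eIF2 with GTP for another round. eEF1 delivers aminoacyl-tRNAs, eEF2 moves the ribosome along the mRNA, and eRF1 with eRF3 releases the finished protein at the stop codon. Most of these factors are needed in every growing cell, and in flies several have paralogs of narrower use, such as the extra cap-binding proteins of the eIF4E family. Sp/KLF proteins bind GC-rich boxes through zinc fingers.

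The sequences under the summits differed widely in letters, and 7 windows are shown because they carry the comparisons made later. They are a window with a DNA replication-related element (DRE) at the summit and a pair of summits of the same gene whose windows differ in it. The others are windows of high and low signal that hold none of the searched words. Each reaches 50 bp either side of an IDR summit, in dm6 coordinates, read from the RefSeq Release 6 genome on the strand of the named gene. Capitals mark the DRE word TATCGATA.
eEF1gamma, chr3R:29220080-29220180, plus strand: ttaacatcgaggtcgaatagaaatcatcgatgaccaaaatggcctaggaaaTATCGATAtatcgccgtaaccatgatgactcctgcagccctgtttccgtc
eIF1, chr3L:3222968-3223068, plus strand: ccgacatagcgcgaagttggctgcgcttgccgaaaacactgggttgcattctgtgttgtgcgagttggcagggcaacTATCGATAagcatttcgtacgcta
eIF1, chr3L:3223191-3223291, plus strand: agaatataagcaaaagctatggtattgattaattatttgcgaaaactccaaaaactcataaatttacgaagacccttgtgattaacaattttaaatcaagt
eEF2, chr2L:21682146-21682246, minus strand: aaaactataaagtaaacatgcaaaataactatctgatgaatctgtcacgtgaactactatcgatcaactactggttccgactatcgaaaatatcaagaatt
eIF3h, chr2L:5052449-5052549, minus strand: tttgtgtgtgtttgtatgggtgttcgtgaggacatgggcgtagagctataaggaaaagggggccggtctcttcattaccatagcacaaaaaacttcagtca
eIF4EHP, chr3R:24109178-24109278, minus strand: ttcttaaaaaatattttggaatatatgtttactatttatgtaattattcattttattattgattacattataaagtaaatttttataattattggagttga
eRF1, chr3L:20348202-20348302, plus strand: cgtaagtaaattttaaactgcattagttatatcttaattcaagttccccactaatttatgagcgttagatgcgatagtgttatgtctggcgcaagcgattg
The word began 1 bp to the right of the eEF1gamma summit. In eIF1 it lay in the window of the stronger summit and was missing from the window of the weaker summit. The 2 peaks overlap, however, and the word lies inside the interval of both. The eIF4EHP window, from the strongest promoter peak of any of the 53 genes, had a GC content of 13.86%, whereas the upper eIF1 window had 52.48%.

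A further 4 windows are shown at start sites because they hold CTTT, the core of the polypyrimidine initiator known from translation genes in flies. A match of these letters need not be such an initiator. In the eIF4A window the word begins 4 bp upstream of the start and follows a G. Another eIF4A start site, not shown, also holds the word. Each window runs from 20 bp upstream to 10 bp after an annotated start site, on the strand of the gene, in dm6, from the same genome, with CTTT in capitals where it begins within 5 bp of the start.
eEF2, chr2L:21682107-21682136, minus strand: ctatggtcgctgcagcgcctcgctCTTTcc
eIF4A, chr2L:5982574-5982603, plus strand: ggctgcctagctatcgCTTTcggtctcata
eIF3f1, chr3R:4714173-4714202, minus strand: ccccacccgcactatcgataggccCTTTtc
eIF3i, chr2L:4967766-4967795, minus strand: ttgactaggccacggtcacactgctCTTTt
Of these 4 genes, eEF2 had an IDR summit at its promoter and the other 3 had none. The 4 are examples from the 7 factor genes with the word. Of those 7, 3 had an IDR promoter summit (42.9%), against 16.6% of all genes with the word.

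CG3065-GFP peaks lay near the start sites of some factor genes and not near others, with differences between subunits of the same complex as well as between groups. A summit was counted at a promoter when it lay within 500 bp of any annotated start site of the gene, which does not show that the peak acts on that gene. IDR summits lay at the promoters of 14 of the 53 factor genes (26.4%), against 12.0% of all protein-coding genes. They covered both release factors, 4 of the 7 elongation factor genes, 4 of the 9 genes of start codon selection and eIF2, eIF6, 2 of the 16 eIF3 genes and 1 of the 13 eIF4 genes. None of the 5 eIF2B genes had one. In the pooled relaxed list the count was 36 of 53 (67.9%), against 49.3% of all genes.

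**Figure D1:**
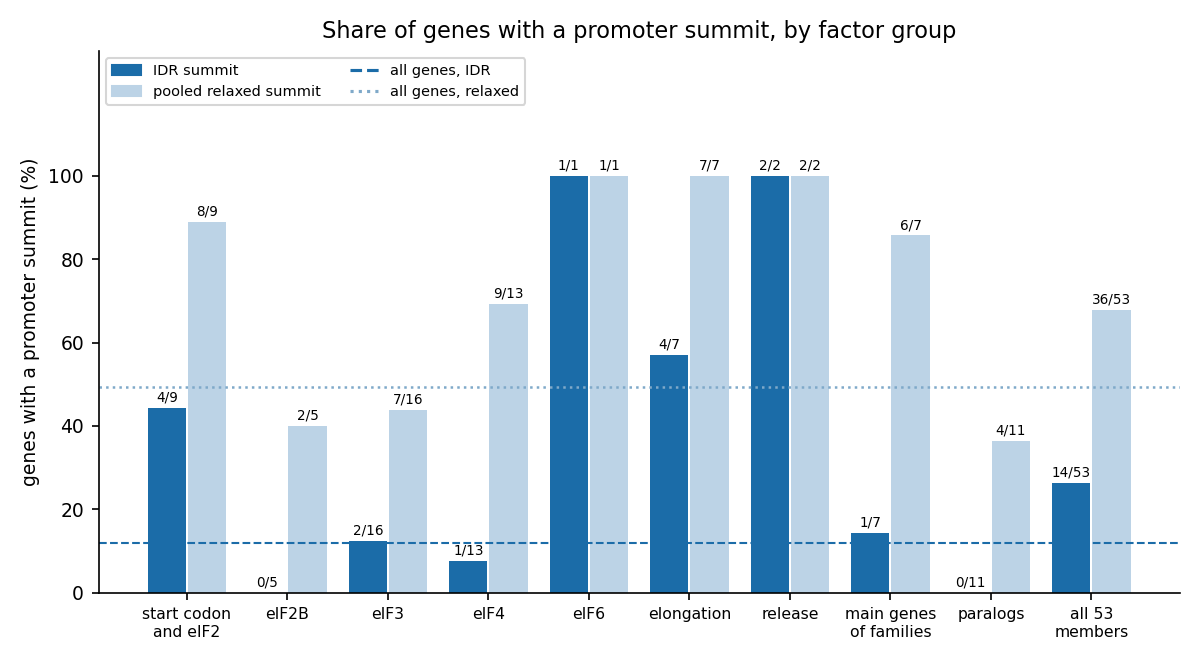
Share of genes (%) with an IDR summit (dark bars) or a pooled relaxed summit (pale bars) within 500 bp of a start site, by factor group, with the counts above the bars and the shares over all 13945 genes as lines (12.0% and 49.3%). The start codon, eIF6, elongation and release groups, the main genes and all 53 members stand above both lines, the main genes with 1 IDR gene of 7. The eIF2B genes and the paralogs have no IDR summit, which is near the share of all genes in groups of 5 and 11.

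Signals were described over the pooled relaxed list. Among the 36 factor genes with a relaxed promoter summit, the median signal of the strongest one was 61.26, beside 48.45 for the 6876 genes of the genome with one. With unlisted genes placed at the bottom, the upper quartile was 82.61 for factor genes and 47.73 for all genes. In the replicate lists taken alone, 36 factor genes (67.9%) had a promoter summit in replicate 1 and 29 (54.7%) in replicate 3, against 52.0% and 41.1% of all genes. In both replicate lists the count was 27 (50.9%), against 34.2%. The factor genes thus stood above the share of all genes in each of the lists, by a smaller factor in the relaxed lists than in the IDR list.

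Start codon selection and the delivery of initiator tRNA form the first group. eIF1 (FBgn0035423), which holds the scanning ribosome open until a start codon is met, had a pair of IDR summits. The stronger lay 323 bp upstream on 3L (peak 3222949 to 3223072), with a pooled signal of 203.1 (rank 330), 121.2 in replicate 1 (rank 277) and 80.0 in replicate 3 (rank 494). It was nearer to RpL28, a ribosomal protein gene read in the opposite direction, whose start lay 58 bp from it. The weaker lay 100 bp upstream of eIF1 and 281 bp from the RpL28 start, with a pooled signal of 110.5 (rank 1348) and replicate ranks of 1119 and 1994. This second summit had eIF1 as its nearest gene, so eIF1 is counted by either way of assigning summits.

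The other 3 genes of this group with an IDR summit had low signals within the IDR set. eIF2gamma (FBgn0263740), the GTP-binding subunit of eIF2, had a summit 29 bp upstream of its nearest start on 3R (15262768 to 15263163), inside the gene because another start lies farther upstream. Its signal was 97.72 in the pool (rank 1726), 69.53 in replicate 1 (rank 1064) and 25.46 in replicate 3 (rank 5561). The start of Su(var)3-9, a histone methyltransferase gene that shares its upstream exons with eIF2gamma, lay 492 bp away, so the summit cannot be given to either gene alone. eIF5B (FBgn0026259), the GTPase of subunit joining, had a signal of 92.96 in the pool (rank 1888), 34.77 in replicate 1 (rank 4411) and 56.09 in replicate 3 (rank 1079), at a summit 129 bp upstream of its nearest start on 3L (3460534 to 3460929). The replicates thus placed these genes in opposite order, with eIF2gamma higher in replicate 1 and eIF5B higher in replicate 3.

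eIF2A (FBgn0037135), an alternative initiation factor, had the weakest promoter summit of the set. Its pooled signal of 82.61 (rank 2397, 3L 21824703 to 21825098) lay just above the IDR limit of 81.33. In replicate 1 the signal was 66.68 (rank 1182), but in replicate 3 it was 14.54 (rank 23210), with a deposited -log10 q of 0.03173. The summit was thus strong in the order of replicate 1 and near the end of that of replicate 3. eIF1A, the partner of eIF1, had a relaxed summit of 60.29. eIF2D, an initiation and recycling factor, had one of 42.5, eIF2alpha, the subunit phosphorylated in stress, one of 40.63, and eIF5, the GTPase activating protein of eIF2, one of 35.19. eIF2beta had no relaxed promoter summit. Of the 3 subunits of eIF2, gamma alone was therefore in the IDR set.

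The exchange factor eIF2B, which reloads eIF2 with GTP, had no IDR promoter summit at any of its 5 subunit genes. In a group of 5, a count of 0 is near the share of all genes, 12.0%. Only eIF2Bepsilon, the catalytic subunit, and eIF2Bgamma had relaxed promoter summits in the pooled list, of 50.75 (rank 5830) and 29.89 (rank 16014). eIF2Balpha, eIF2Bbeta and eIF2Bdelta had none. The relaxed count was thus 2 of 5 (40%), against 49.3% of all genes. A summit of signal 905.6, the third strongest of all IDR peaks, lay 673 bp upstream of eIF2Bbeta on X (2703729 to 2704054). It lay 46 bp upstream of the start of Ugalt, a UDP-galactose transporter gene, and outside the 500 bp window of eIF2Bbeta.

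The scaffold complex eIF3, which holds the small subunit and recruits it to mRNA, had IDR summits at 2 of its 16 genes. eIF3c (FBgn0034258) had a summit 11 bp upstream of its start on 2R (17665469 to 17665864), with a signal of 200.9 in the pool (rank 339), 105.6 in replicate 1 (rank 388) and 87.47 in replicate 3 (rank 402). Its ranks in the lists were close to each other. eIF3h (FBgn0022023) had a summit 281 bp after its nearest start, in an intron, on 2L (5052301 to 5052696), with a signal of 149.3 in the pool (rank 693), 89.69 in replicate 1 (rank 585) and 56.11 in replicate 3 (rank 1076). The start of senju, read in the opposite direction, lay 344 bp from that summit.

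eIF3m and eIF3a fell just short of the IDR limit of 81.33, with pooled signals of 76.88 and 76.52. For eIF3m the replicates gave 47.65 (rank 2365) and 28.6 (rank 4313), and for eIF3a they gave 58.33 (rank 1554) and 16.3 (rank 17662). eIF3a thus ranked within the strongest 2451 entries of replicate 1 and far down in replicate 3. eIF3d1, eIF3f1 and eIF3l had relaxed signals of 36.67, 33.28 and 32.24. The remaining 9 genes, eIF3b, eIF3d2, eIF3e, eIF3f2, eIF3g1, eIF3g2, eIF3i, eIF3j and eIF3k, had no pooled relaxed promoter summit. Of these, eIF3e had a promoter entry in each replicate list (rank 14940 in replicate 1 and 9098 in replicate 3). eIF3j had a promoter entry in replicate 1 alone (rank 29933). Within the pooled list, subunits of the same complex therefore ranged from rank 339 to no entry. The share of eIF3 genes with an IDR summit, 12.5%, lay near that of all genes.

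Of the cap-binding and helicase genes of the eIF4 group, 1 of 13 had an IDR promoter summit (7.69%), against 12.0% of all genes. In a group of 13 that count is near the share of all genes. A pooled relaxed promoter summit was found at 9 of 13 (69.2%), against 49.3%. eIF4EHP (FBgn0053100), a cap-binding relative that represses translation of chosen mRNAs such as caudal in the early embryo, had the strongest promoter summit of all factor genes. On 3R (24109120 to 24109355) its signal was 381 in the pool (rank 64), 208.3 in replicate 1 (rank 63) and 173.4 in replicate 3 (rank 76). The summit lay 268 bp upstream of eIF4EHP and 108 bp upstream of CG18428, read in the opposite direction, so by nearest start site it belongs to CG18428. The count by nearest start site alone was 13 of 53 (24.5%) against 8.66% of all genes, and eIF4EHP was the gene lost.

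eIF4A, the RNA helicase of the cap-binding complex, had a pooled signal of 69.65, with 46.55 in replicate 1 (rank 2480) and 23.78 in replicate 3 (rank 6579). eIF4E1, the main cap-binding protein, had 62.22 at a summit at -271 bp from its nearest start, matched by 22.53 in replicate 1 (rank 9646) and 31.14 in replicate 3 (rank 3578), and a second of 58.72 lay at -28 bp. Both genes lay under the IDR limit, above the median of 48.45 for all genes with a relaxed promoter summit, and were found in both replicate lists. eIF4G1, the scaffold of the complex on chromosome 4, had 32.25 in the pool and no promoter entry in replicate 3. The helicase cofactor eIF4H1 had 30.52, near the median of the pooled list (30.86), and eIF4B had 21.93, near its lowest signal (21.48). The genes of the 3 core proteins of the cap-binding complex, eIF4A, eIF4E1 and eIF4G1, were all outside the IDR set. With 12.0% of all genes in that set, this is near the background.

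eIF6 (FBgn0034915), which keeps the large ribosomal subunit from joining too early and takes part in its assembly, had the second strongest promoter summit of the factor genes. It lay 99 bp upstream on 2R (23850294 to 23850507), within the neighbouring gene ytr, with a signal of 346.5 in the pool (rank 89), 159.6 in replicate 1 (rank 136) and 185.2 in replicate 3 (rank 61). No other protein-coding start site lay within 500 bp. It ranked among the strongest 136 entries in each of the 3 lists.

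Every elongation factor gene had a relaxed promoter summit, and 4 of 7 had an IDR summit. eEF1gamma (FBgn0029176), the structural subunit of eEF1, had a signal of 244 in the pool (rank 198), 161.6 in replicate 1 (rank 131) and 76.69 in replicate 3 (rank 539), at a summit 42 bp upstream on 3R (29220042 to 29220195). eEF1alpha1 (FBgn0284245), the GTPase that delivers aminoacyl-tRNA and one of the most abundant proteins of the cell, had a pair of IDR summits. The stronger lay in an intron on 2R (11892445 to 11892559), 406 bp after the nearest start, with 206 in the pool (rank 316), 77.41 in replicate 1 (rank 830) and 122.9 in replicate 3 (rank 169). eEF1gamma thus ranked higher in replicate 1 and eEF1alpha1 in replicate 3. The weaker summit of eEF1alpha1 lay 429 bp upstream, in a coding exon of ERp60, a protein disulphide isomerase gene whose start was nearer (273 bp). Its signal was 112.9 in the pool (rank 1285), 60.7 in replicate 1 (rank 1419) and 52.58 in replicate 3 (rank 1232).

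eEF5 (FBgn0285952), the hypusine-containing factor formerly named eIF5A, had a signal of 126 in the pool (rank 1016), 67.44 in replicate 1 (rank 1153) and 64.95 in replicate 3 (rank 787). eEF2 (FBgn0000559), the GTPase of translocation, had 104.4 in the pool (rank 1526), 74.69 in replicate 1 (rank 907) and 28.16 in replicate 3 (rank 4467). Each summit lay 32 bp upstream of the nearest start, on 2R (24057568 to 24057963) for eEF5 and on 2L (21681998 to 21682393) for eEF2. eEF5 stood in the upper part of both replicate lists, while eEF2 was much lower in the order of replicate 3. The 3 elongation genes outside the IDR set were eEF1alpha2 (44.73), the eEF1alpha paralog, and the exchange factor subunits eEF1beta (43.59) and eEF1delta (28.67). The eEF1 subunits that work in 1 complex therefore ran from rank 198 for eEF1gamma to rank 17386 for eEF1delta.

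Both release factor genes had IDR summits of low signal. eRF1 (FBgn0036974), which reads the stop codon, had 90.91 in the pool (rank 1974), 35.79 in replicate 1 (rank 4196) and 41.75 in replicate 3 (rank 1992). Its summit lay 103 bp upstream on 3L (20348054 to 20348449), with the start of Rbbp5, a chromatin gene read in the opposite direction, 310 bp away. eRF3 (FBgn0020443), its GTPase partner, had 90.47 in the pool (rank 1991), 30.47 in replicate 1 (rank 5605) and 55.32 in replicate 3 (rank 1114), at a summit 68 bp upstream on 2L (12434186 to 12434581). That summit lay inside SC35, a splicing factor gene on the other strand whose start was 281 bp away. The pair held neighbouring places in the pool, and both ranked higher in replicate 3 than in replicate 1.

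**Figure D2:**
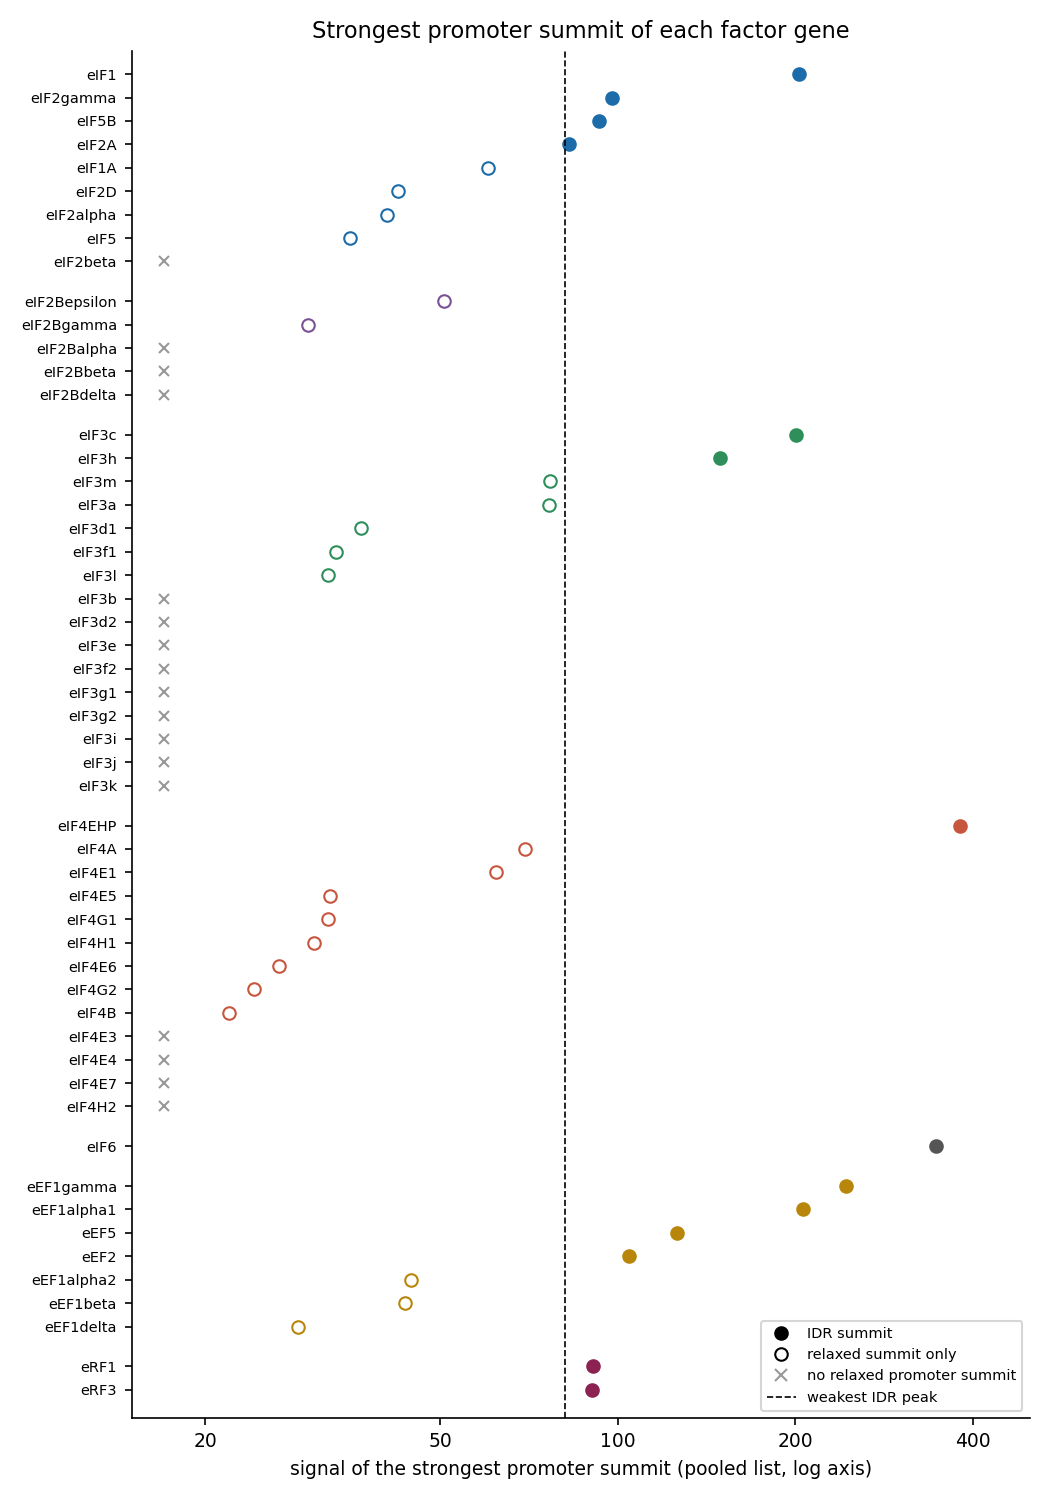
Signal of the strongest promoter summit of each factor gene in the pooled list (log axis, caller's own value), grouped and coloured by complex. Filled points are IDR summits, open points relaxed summits only, crosses at the left edge the 17 genes with no relaxed promoter summit, and the dashed line the weakest IDR peak at 81.33. eIF4EHP and eIF6 lie farthest to the right, while eIF2A touches the line and eIF3m and eIF3a lie just left of it.

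In 7 families the symbols differ by a final number, and the lowest-numbered gene was taken as the main one and the other 11 as paralogs. IDR summits lay at 1 of the 7 main genes, eEF1alpha1, and at none of the 11 paralogs, beside 13 of the 35 genes outside such families (37.1%) and 12.0% of all genes. With groups this small, the counts of 1 and 0 are near the share of all genes. In the pooled relaxed list 6 of 7 main genes and 4 of 11 paralogs (36.4%) had a promoter summit, against 49.3% of all genes. In both replicate lists the counts were 4 of 7 and 1 of 11, against 34.2%. The paralog was eEF1alpha2, whose replicate entries lay at different summits. The difference between main genes and paralogs was not tested, and both groups are small. By family, the main gene had the higher pooled signal for eIF3d (36.67 for eIF3d1, none for eIF3d2), eIF3f (33.28 for eIF3f1, none for eIF3f2), eIF4H (30.52 for eIF4H1, none for eIF4H2) and eEF1alpha (206 and 44.73). For eIF4G the order was mixed. eIF4G1 had 32.25 and eIF4G2 had 24.16 in the pool, but in replicate 1 they had 14.8 (rank 20205) and 23.28 (rank 9108), and neither had a promoter entry in replicate 3. Neither eIF3g1 nor eIF3g2 had a relaxed promoter summit. Against eIF4E1, with 62.22, the paralogs eIF4E5 and eIF4E6 had 32.49 and 26.65, and eIF4E3, known for its role in the male germline, eIF4E4 and eIF4E7 had none. eIF4EHP, a more distant relative of that family, differed from all of them in its signal of 381. That summit, however, lay nearer to the start of CG18428 (108 bp) than to that of eIF4EHP (268 bp). By its symbol eIF4EHP was counted with the genes outside families and not with the paralogs.

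The replicates were compared by rank, since their signals are on separate scales. All 16 IDR promoter summits of factor genes had a relaxed summit within 200 bp in each replicate, as did 1225 of the 1236 IDR promoter summits of all genes (99.1%). The IDR selection itself uses both replicates, so this match is partly built in. Among all pooled relaxed promoter summits of factor genes, 32 of 52 (61.5%) were matched in both, against 4002 of 7571 (52.9%) over all genes. eIF4EHP and eIF3c held close ranks in the replicates. eEF2, eIF2gamma and eIF2A ranked many places lower in replicate 3 than in replicate 1, while eRF3 and eIF5B, and by a smaller step eRF1, ranked lower in replicate 1. When the 2451 strongest entries of replicate 3 alone replaced the IDR set, the count was 11 of 53, against 11.8% of all genes, without eEF2, eIF2A and eIF2gamma. With replicate 1 alone it was 13, against 12.3%, without eIF5B, eRF1 and eRF3 and with eIF3a and eIF3m added. Neither release factor gene was therefore among the strongest entries of replicate 1.

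**Figure D3:**
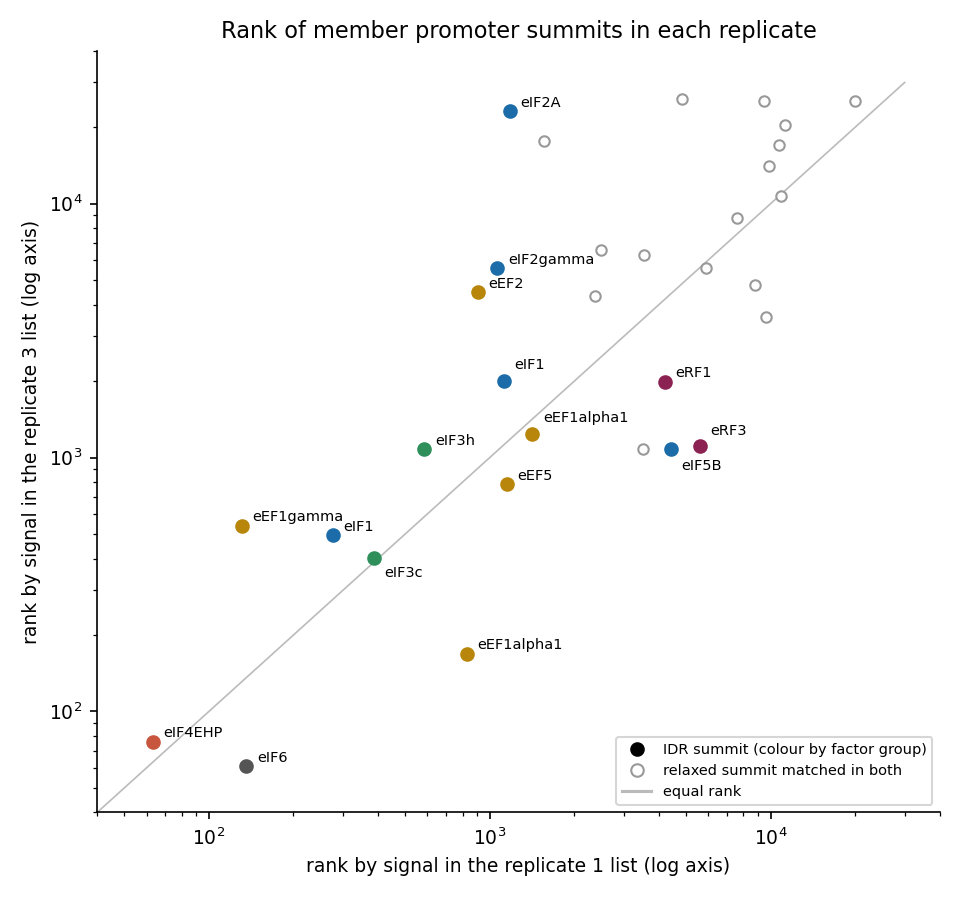
Rank by signal of each promoter summit of a factor gene in the replicate 1 list (horizontal, log axis) and the replicate 3 list (vertical, log axis), with rank 1 the strongest and the line marking equal ranks. Filled points are the 16 IDR summits coloured by group, and open points are relaxed summits matched in both replicates. eIF4EHP and eIF6 lie near the line at the strong end, and eIF2A lies far above it.

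Most promoter summits lay just upstream of the nearest start of the factor gene. Of the 16, 11 lay between 129 and 11 bp upstream of the nearest start of the factor gene, from eIF5B to eIF3c. The exceptions were the intronic summits of eIF3h and eEF1alpha1, 281 and 406 bp after a start, and the upstream summits of eIF4EHP, eIF1 and eEF1alpha1 at 268, 323 and 429 bp. For these last 3 another gene had the nearer start, namely CG18428, RpL28 and ERp60. Of the 11, the summits of eIF2A, eIF2gamma and eIF5B lay inside the gene. They lay 161, 492 and 245 bp after another start of the same gene. No share over all IDR promoter summits is given for these positions. With fragments of 200 to 800 bp, start sites this close together cannot be assigned separately.

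**Figure D4:**
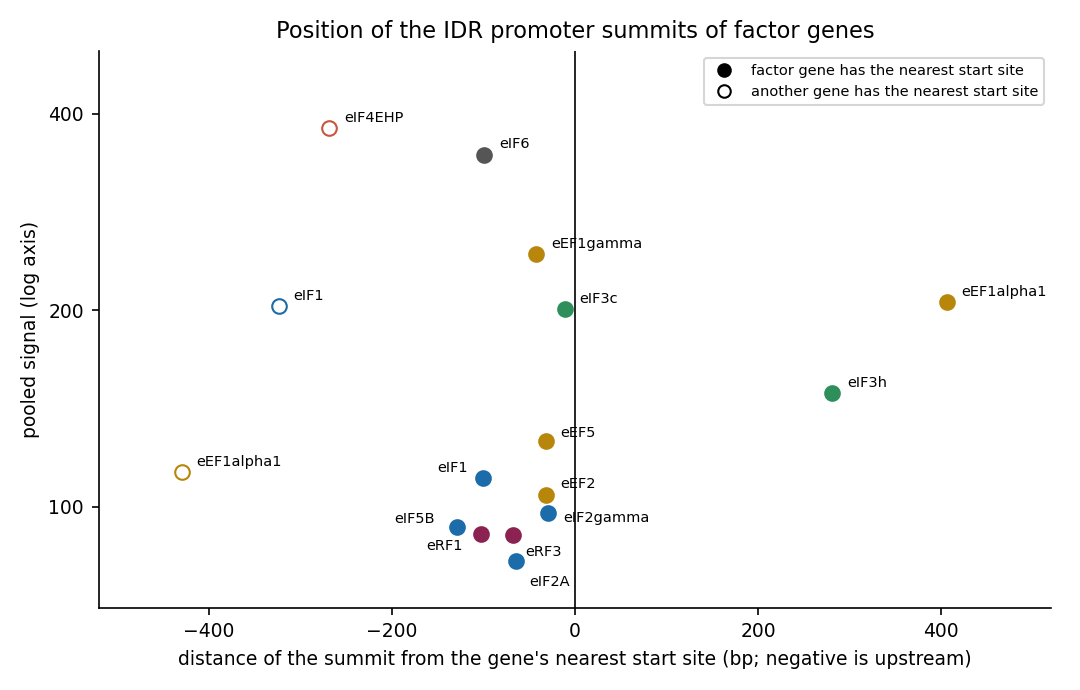
Distance in bp of each IDR promoter summit from the nearest start site of its factor gene (negative is upstream) against pooled signal (log axis). Filled points have the factor gene as the nearest gene and the 3 open points, of eIF4EHP, eIF1 and eEF1alpha1, have another. Most points sit from 129 to 11 bp upstream, and eIF3h and eEF1alpha1 sit downstream.

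IDR summits within the body of a factor gene were fewer. They lay within 6 of the 53 genes (11.3%), against 7.15% of all genes, and pooled relaxed summits within 24 (45.3%), against 40.8%. In eEF1alpha1, eIF2A, eIF2gamma and eIF3h the IDR summit within the gene was the promoter summit already described. The other 2 genes are long and had IDR summits far from any start. eIF4EHP, of 45884 bp, had a summit of signal 140.4 (rank 807) in an intron 9762 bp after its start on 3R (24099000 to 24099395). eIF5B, of 32320 bp, had summits of 100.7 and 87.95 in introns, 27709 and 21999 bp after its nearest start on 3L. These introns held many weaker entries as well. eIF4EHP had 19 pooled relaxed summits, or 0.414 per kb, and eIF5B had 26, or 0.804 per kb. The 663 genes of 30000 bp or longer had a median of 10 summits, or 0.192 per kb. The genes Syx1A and CG10694 lie nested within eIF4EHP, so its summits cannot all be given to eIF4EHP alone, and no protein-coding gene is nested in eIF5B.

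**Figure D5:**
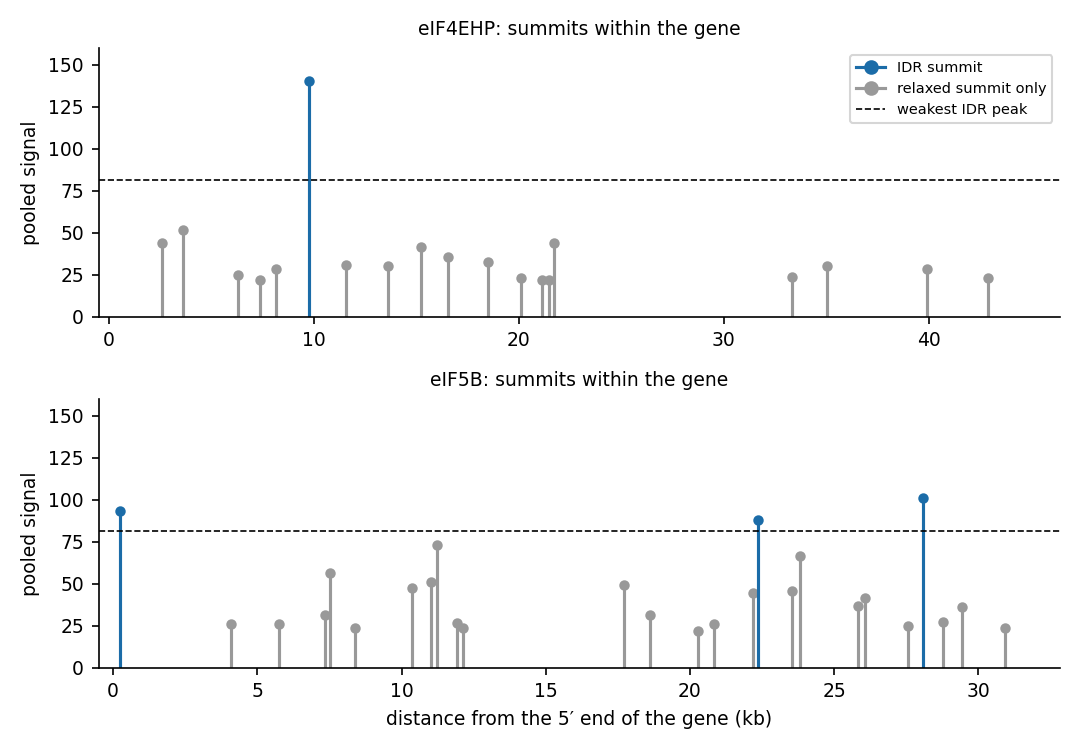
Pooled signal of every relaxed summit within eIF4EHP (top) and eIF5B (bottom) by distance in kb from the 5' end of the gene, with IDR summits in blue and the weakest IDR peak, 81.33, as a dashed line. eIF4EHP has 1 IDR summit among 19, while eIF5B has 3 among 26, 1 of them near its start.

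Genes with several annotated start positions offer more places for a summit. Factor genes had a mean of 1.53 start positions, beside 1.41 for all genes, and a median length of 1969 bp, beside 2166 bp. Among the 31 factor genes with 1 start position, 3 had an IDR promoter summit (9.68%), against 9.20% of all such genes. Among the 22 with more than 1, 11 had one (50%), against 19.9%. The higher share of factor genes therefore lay with genes of several start positions, while those with 1 stood at the share of all genes. The 3 were eIF1, eIF4EHP and eIF6. This split was chosen after the values had been seen, and the part that the number of start positions plays in the count was not tested. Of the 5 elongation factor genes with several start positions 4 had an IDR summit, and of the 2 with 1 start position neither had. All 11 eIF3 genes with a single start position lacked an IDR summit. With a share of 9.20% among all such genes, the lack of a summit in groups of 2 and 11 is near the background.

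Words bound by known factors were searched on both strands within 50 bp of each summit. They were the Sp/KLF box (spelled CCCGCCC, and counted also when spelled CCCACCC, when spelled CACGCCC or when spelled CACACCC), the DRE (TATCGATA), the core of motif 1 of fly housekeeping promoters (GGTCACAC) and the GAGA word (GAGAG). None of these words contains another. The Sp/KLF box, the kind of site that the family of the tagged protein binds, was found at 2 of the 16 IDR promoter summits of factor genes (12.5%), against 80 of all 1236 (6.47%). The 2 were eEF1alpha1, with CACGCCC beginning 8 bp left of the stronger summit, and eIF3c, with CCCGCCC 29 bp right of it. The DRE was found at 3 of 16 (18.8%), against 41 of 1236 (3.32%). These were the upper summit of eIF1, eEF1gamma and eIF2A, of which the first pair is printed above. The motif 1 core was found at eIF2A alone, against 1.7% of all IDR promoter summits, and GAGA at eIF3c alone, against 8.82%. Of the 16 summits, 11 thus held none of the words within 50 bp, eIF4EHP and eIF6 among them. The share of all 1236 IDR promoter summits with none of the words was not counted. Each word alone stood at 8.82% of those or fewer, so a lack of words is not read as a trait of factor genes.

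In the pooled relaxed list the DRE stood at 9 of 52 promoter summits of factor genes (17.3%), against 3.3% of 7571. Besides the 3 IDR summits, these were summits of eIF1A, eIF2alpha, eIF3a, eIF4A, eIF4B and eIF5, with signals from 21.93 for eIF4B to 76.52 for eIF3a. The DRE therefore also lay at summits outside the IDR set, down to entries near the lowest signal of the list. The Sp/KLF box stood at 5 of 52 (9.62%), against 5.03%. Its added members were eIF3d1, eIF3l and a weaker summit of eRF3. A match is a description of the letters and not evidence of binding by any factor. Summit windows also differed in composition, with a median GC content of 44.55% over the 16 IDR promoter summits of factor genes and 34.65% over all 1236. Whether the word counts follow from composition was not tested.

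CTTT beginning within 5 bp of an annotated start, on the strand of the gene, was found at 7 of 53 factor genes (13.2%) and at 8.07% of all genes. The cytosolic ribosomal protein genes, where this initiator is best known, had it at 58 of 92 (63%). The 7 were eEF1alpha1, eEF2 and eEF5 among the elongation factors, eIF3f1, eIF3i and eIF3m among the eIF3 subunits, and eIF4A. All 3 elongation factor genes with the word had an IDR promoter summit, and of the 4 without it eEF1gamma had one. None of the 4 initiation factor genes with the word had one, although eIF3m and eIF4A came near the limit. Over all genes an IDR promoter summit was found at 16.6% of those with the word and at 11.6% of those without.

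The factor genes were set beside other translation genes. Cytosolic ribosomal protein genes had IDR promoter summits at 46 of 92 (50%), cytosolic aminoacyl-tRNA synthetase genes at 4 of 17 (23.5%) and mitochondrial synthetase genes at 0 of 15, against 12.0% of all genes. By nearest start site alone the counts were 43, 3 and 0, against 8.66%. Mitochondrial translation factor genes, the organelle counterparts of those described here, had none among 9, and in sets of 15 and 9 genes a count of 0 is near the share of all genes. Their highest relaxed signal was that of mEFTu1, which delivers aminoacyl-tRNA in mitochondria, at 67.02. Among 27 regulators and partners of cytosolic translation 7 had an IDR promoter summit (25.9%), or 4 by nearest start site alone. The strongest was larp, an RNA-binding protein gene linked to growth control, with 454.3 in the pool (rank 34), 219 in replicate 1 (rank 49) and 231.9 in replicate 3 (rank 28). The others were HBS1, of ribosome rescue (131.7), the DEAD-box helicase gene bel (110.2), the growth kinase gene mTor (99.02), Dph1, of the diphthamide modification of eEF2 (98.16), Tctp (90.14) and nero, of the hypusine modification of eEF5 (84.46). Of the other diphthamide genes, Dph2 (39.28) was outside the IDR set and Dph5 had no pooled relaxed promoter summit, and the other enzyme of the hypusine modification was not analysed here. Thor, the repressor that binds eIF4E1, had 52.15, and the eIF2alpha kinase gene Gcn2 had none.

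By chromosome, IDR promoter summits lay at 3 of 6 factor genes on 2L, 4 of 12 on 2R, 4 of 12 on 3L, 3 of 15 on 3R, 0 of 7 on X and 0 of 1 on chromosome 4. The shares over all genes ran from 6.25% on chromosome 4 to 14% on 3R, with 9.15% on X. At that share fewer than 1 of the 7 X-linked factor genes would carry a summit, so a count of 0 there is near the background.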

How the data were processed

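ChIP-seq peak lists from 2 replicates of 1 group were used. The authors deposited narrowPeak lists in dm6 and dm3, and the dm6 lists were used here. The signal of each peak is the authors' value as deposited, read from column 7. The -log10 p-value and q-value columns are the authors' too, per the file records, and were used only to describe single peaks. The relaxed lists were made as input to IDR, per the file records. Which aligner and peak caller were used, and at which IDR cutoff, is not given in the sources used here, and neither is the depth.

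Summits were compared with start sites of the Ensembl release 115 annotation (BDGP6 version 54), in 1-based dm6 coordinates. The RefSeq annotation gave identical ends for all 53 genes. Promoter summits lay within 500 bp of any start site, and a replicate summit was matched within 200 bp. Motif words were searched in the RefSeq genome. Every member with an IDR summit and both sides of each paralog family are named with values, the rest by their highest relaxed signal. Other genes came from a list of 39 symbols, of which 36 were matched, 3 of them by synonym or case, and 3 are not reported here. The members, lists and motifs were chosen with earlier results of these data known. Alternatives changed the window, start sites, assignment, threshold and motif window and left out each replicate. The assignment of summits to start sites within 500 bp was tested on simulated summits planted at known distances. The other steps were not tested in this way. Computation used Python 3.11.15, numpy 2.4.6, pandas 2.3.3 and matplotlib 3.10.9.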

Additional observations from a re-analysis of the deposited data

How the results depend on the processing

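The count of factor genes with an IDR promoter summit, 14, ran from 11 at a window of 250 bp (9.59% of all genes) to 15 at 1000 bp (14.1%), and was 13 by nearest start site (8.66%) and 12 with canonical start sites (10.5%). Among the 1226 IDR peaks of highest signal (115.9 or above) it was 8 (6.83% of all genes), with 1 of 9 start codon genes, 0 of 2 release factors and 7 of 35 genes outside families. Leaving out a replicate gave 11 to 13 in all, 2 to 3 of 9 start codon genes, 2 to 4 of 16 eIF3 genes and 0 to 2 release factors. At 250 bp the eIF3 count was 1, the eIF4 count 0 and the count of main genes 0. With canonical start sites eIF3 had 1 and main genes 0, since eEF1alpha1 and eIF3h were lost. By nearest start site eIF4 had 0. At 1000 bp eIF2B gained 1 gene, eIF2Bbeta. IDR summits within the gene, 6 in the main count (7.15% of all genes), were 15 with 1000 bp upstream added (16.4%), 3 among those strongest peaks (4.04%) and 5 to 9 without a replicate. Searching 100 bp either side gave the Sp/KLF box at 4 of 16 summits (10% of all), the DRE at 5 (6.96%) and GAGA at 3 (19.6%). The paralogs had 0 under every alternative. No paired analysis was possible because there was 1 group. Unknown depth limits what an unlisted gene can show.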
